A study of Mus musculus with 16 samples.

Results

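KSL cells are the Lin- c-Kit+ Sca-1+ fraction of mouse bone marrow, which holds the stem cells and the multipotent progenitors of the blood. The 8 KSL arrays of the series were compared here, 4 labelled Camkk2 null (Camkk2-/-) and 4 labelled WT, out of 16 arrays in all. The other 8 arrays hold KL cells, the Lin- c-Kit+ Sca-1- progenitors, 4 under each genotype label, and were set beside the KSL result but not used in its test. Every array was chosen by its title, and 30638 of 72688 features, the probe sets that name 1 gene, were tested. Marrow of 16 mice per genotype was made into 4 biological replicates, so each array reads a pool and the p-values below measure the spread between pools. The mice carried the null in every cell, not only in blood cells, and received no treatment, and both labels share the same sort into lysis buffer. Strain, age, sex and the deleted part of the gene are not given in the sources used here.

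Camkk2 encodes CaMKK2, a kinase that calcium-bound calmodulin switches on. CaMKK2 phosphorylates CaMKI, CaMKIV and the energy sensor AMPK, and through AMPK restrains the growth pathway of mTOR. In the KSL gate, stem cells stand beside multipotent progenitors that lean toward lymphoid, erythroid or myeloid fates, and each leaning has its own transcription factors and receptors. The arrays read RNA of the whole gate, so fewer cells of a type and less RNA per cell cannot be told apart in any result below.

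Camkk2 itself did not separate the labels. On the log2 RMA scale it read 7.82, 7.93, 7.14 and 7.14 in replicates 1 to 4 of KSL labelled Camkk2 null, against 7.98, 8.02, 7.11 and 7.45 in KSL labelled WT. Replicates 1 and 2 were high and replicates 3 and 4 were low under both labels, and the labels overlapped. The difference was -0.13 (SE 0.24, adjusted p = 0.714, limma). KL cells gave 7.83, 7.82, 7.08 and 7.12 under the null label, against 7.86, 7.81, 6.89 and 7.48 under the WT label, with the same split by replicate number. Whether the single Camkk2 probe set lies in the deleted part is not known from the sources used here. Every direction below is that of the label.

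**Figure D1:**
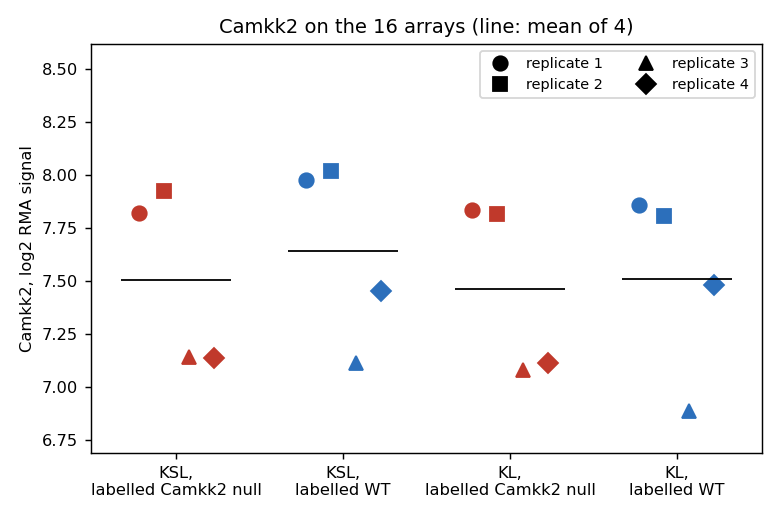
Camkk2 signal (log2 RMA, vertical axis) on each of the 16 arrays, grouped by cell population and genotype label, with a symbol for each replicate number and a line at the mean of 4. Replicates 1 and 2 lie between 7.81 and 8.02 in all 4 groups, and replicates 3 and 4 between 6.89 and 7.48.

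The cell population label was hardly visible either. Between KSL and KL, 79 probe sets (0.258% of those tested) were called under the null label and 26 (0.0849%) under the WT label. A call here means that limma gave an adjusted p under 0.05 and that the fold was 1.5 or more. The fit left out the replicate number, so what same-numbered arrays share stayed in its error and may lower these counts. Hlf, a transcription factor of stem cells that the KSL gate should enrich, averaged 6.33 in KSL and 6.31 in KL under the null label, and 8.29 in KSL and 8.62 in KL under the WT label. Klf1, the erythroid factor that the KL gate should enrich, averaged 9.11 in KSL and 8.51 in KL under the null label, and 6.83 in KSL and 6.56 in KL under the WT label. Ly6a, which encodes Sca-1, is not analysed here. The arrays thus divided by genotype label and hardly by sorted population.

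The first principal component of the 8 KSL arrays took 63.9% of the variance and set the labels apart. The second took 10.3%. On it, replicates 1 to 4 labelled Camkk2 null lay at 11.02, 2.00, -7.16 and -8.15, and those labelled WT at 18.4, 8.68, -13.4 and -11.3. Replicates 1 and 2 were again on one side and replicates 3 and 4 on the other, as for Camkk2. Array medians were alike, from 5.01 to 5.12, and arrays of one label correlated at 0.994 to 0.998 across probe sets.

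**Figure D2:**
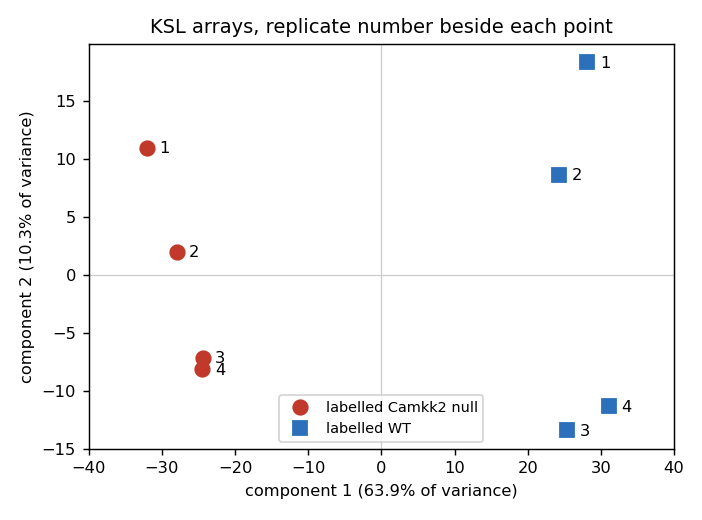
The 8 KSL arrays on their first component (horizontal axis) and second component (vertical axis), with the replicate number beside each point. The labels separate on the first component, and replicates 1 and 2 lie above replicates 3 and 4 under both labels on the second.

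Of the 30638 probe sets, 1521 (4.96%) were called between the labels, 1124 (3.67%) lower and 397 (1.30%) higher under the null label. Without the fold minimum, 3213 (10.5%) were lower and 2595 (8.47%) higher, so decreases outnumbered increases mainly among the larger differences. At a fold of at least 4, 60 were lower and 25 higher, and at a fold of at least 8, 14 were lower and 4 higher. The median difference over all probe sets was 0.05. The labels did not overlap for 8188 probe sets (26.7%). Among these were 1108 of the decreases and 387 of the increases, so lack of overlap adds little to a call. Among the decreases, 261 read under the overall median level of 5.89 on the null arrays and 90 did so on the WT arrays. Among the increases, 15 read under it on the null arrays and 78 on the WT arrays.

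**Figure D3:**
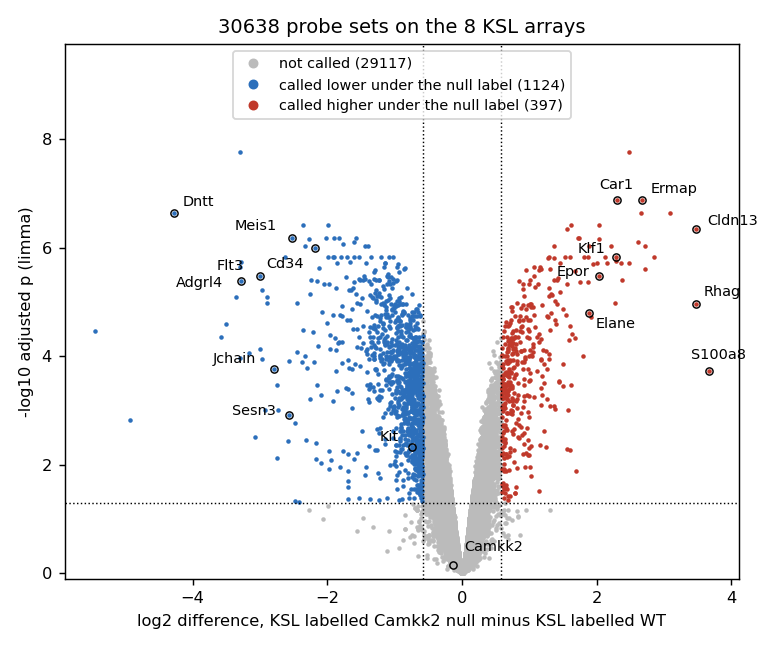
Each of the 30638 probe sets by its log2 difference, labelled Camkk2 null minus labelled WT (horizontal axis), and the -log10 of its adjusted p from limma (vertical axis). Dotted lines mark a fold of 1.5 and an adjusted p of 0.05, and colours mark the 1124 probe sets called lower and the 397 called higher. Camkk2 lies near the origin.

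The leading decreases joined genes of stem cells, of vessels and of early lymphoid cells, and the leading increases genes of red cells and neutrophils. Genes named as leading were called, had the largest differences and did not overlap between labels on any array, so that lack of overlap was a rule of choice. Dntt, which adds nucleotides at antigen receptor joints in lymphoid precursors, read 5.67, 5.61, 5.77 and 5.72 under the null label, against 10.19, 10.26, 9.58 and 9.86 under the WT label (log2 difference -4.28, SE 0.13, adjusted p = 2.29e-07, limma). The null arrays were close together and below the median of all probe sets. S100a8, a calcium-binding protein of neutrophils, read 9.12, 9.94, 9.33 and 8.51 under the null label, against 5.46, 6.72, 5.28 and 4.79 under the WT label (3.66, SE 0.40, adjusted p = 1.89e-04). Its spread was wide under both labels, with replicate 2 highest under each. Gcnt2, which branches carbohydrate chains of the I blood group, read 6.86, 6.71, 6.45 and 6.84 under the null label, against 10.49, 9.997, 9.65 and 9.87 under the WT label (-3.29, SE 0.16). Insl6, an insulin-like peptide, differed by -2.89, Laptm4b, a lysosomal membrane protein, by -2.46, and Tespa1, an adaptor of T cell receptor signalling, by -2.24. Among the increases, Ces2g, a carboxylesterase, differed by 2.66, Slc25a21, a mitochondrial carrier of oxodicarboxylates, by 2.61, and Atp1b2, a subunit of the sodium pump, by 2.36. The 25 leading decreases ran from -4.28 to -1.99 and the 25 leading increases from 1.92 to 3.66.

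**Figure D4:**
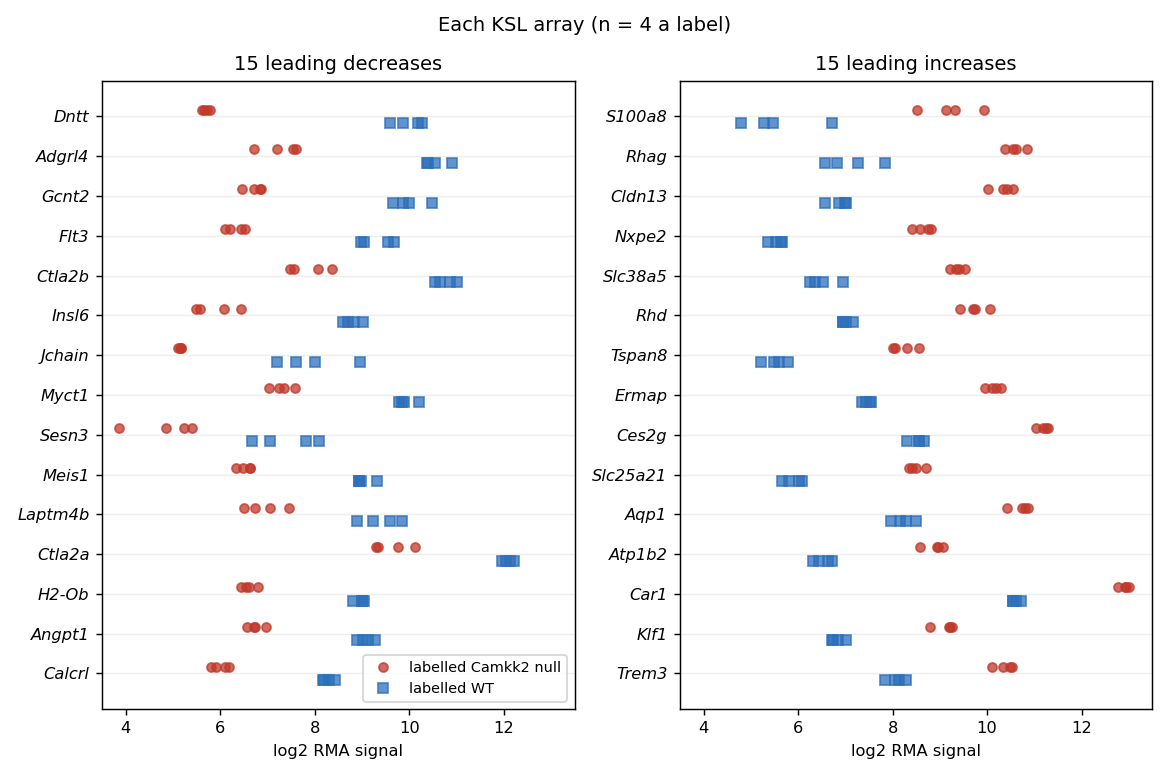
Log2 RMA signal (horizontal axis) of the 15 leading decreases (left) and the 15 leading increases (right), 1 symbol for each of the 4 arrays of a label. Symbols of the labels do not overlap for any of these genes, which was a condition of choice, and Sesn3 and S100a8 spread most.

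Surface proteins of stem cells and multipotent progenitors were lower as a group. Of 20 measured, 12 fell and none rose, with a median difference of -0.67. Cd34, a sialomucin, read 8.92, 9.15, 9.05 and 9.16 under the null label, against 11.52, 11.07, 11.21 and 11.21 under the WT label. The labels lay well apart, with little spread in either. Adgrg1, an adhesion receptor of stem cells, read 9.62, 9.71, 9.74 and 9.78 under the null label, against 12.16, 11.73, 11.49 and 11.66 under the WT label. Kit, the receptor of stem cell factor that served to sort the cells, read 9.25, 9.37, 9.22 and 9.41 under the null label, against 10.54, 9.96, 9.82 and 9.92 under the WT label (-0.75, SE 0.14, adjusted p = 0.00464, limma). The Kit labels did not overlap, and replicate 1 was highest under the WT label. Emcn, Cd244a, Cd53, Cd93 and Cd48 fell by 1.60, 1.53, 1.37, 1.37 and 1.29 on the log2 scale. Procr, the protein C receptor of long-term stem cells, was at -0.28 and Vwf at 0.09, neither called. Cd82, a tetraspanin, was at 0.37 and stayed under the fold minimum.

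Transcription factors of stem cells were lower in part. Of 23 measured, 9 fell and none rose, with a median of -0.38. Meis1, a homeobox factor, read 6.63, 6.64, 6.34 and 6.48 under the null label, against 9.31, 8.98, 8.94 and 8.94 under the WT label. Hlf read 6.43, 6.32, 6.40 and 6.18 under the null label, against 8.81, 8.35, 7.96 and 8.03 under the WT label. The labels lay far apart for both genes, and WT replicate 1 was the highest array for each. The ETS factors Etv6, Fli1 and Erg changed by -1.48, -1.25 and -1.08, the RNA-binding regulator Msi2 by -1.21 and Ikzf2 by -1.16. Tal1 at 0.43, Gata2 at -0.37 and Runx1 at -0.53, which stem cells and red cell progenitors share, had limma adjusted p values of 1.66e-04, 0.00226 and 6.29e-04 but no 1.5-fold difference. Both lists hold genes that the study picked from these arrays, so their counts are not independent evidence of a direction.

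Genes best known from blood vessels, several of which stem cells also express, were lower in part. Of 22 measured, 10 fell and none rose, with a median of -0.24. Adgrl4, an adhesion receptor of vessel sprouting, read 6.71, 7.20, 7.54 and 7.61 under the null label, against 10.90, 10.39, 10.54 and 10.38 under the WT label (-3.29, SE 0.19, adjusted p = 4.12e-06, limma). Myct1, a membrane protein of endothelium and stem cells, differed by -2.63, and Angpt1, the ligand of the receptor Tie2, by -2.34. Tie1, a partner of Tie2, read 7.07, 7.06, 7.02 and 7.08 under the null label, against 7.99, 8.10, 7.77 and 8.05 under the WT label. The null arrays of Tie1 were within 0.1 of each other. Cdh5 and Kdr, which define endothelium, were not called, nor were Eng (-0.07), Sox18 (0.07) and Cldn5 (-0.05). Calcrl, the receptor of adrenomedullin and not on that list, read 5.80, 5.92, 6.18 and 6.10 under the null label, against 8.42, 8.17, 8.31 and 8.20 under the WT label.

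Early lymphoid genes held Dntt, the largest decrease outside the variable segments of immunoglobulins. Of 19 measured, 9 fell and none rose, with a median of -0.52. Jchain, the joining chain of secreted antibodies, read 5.16, 5.17, 5.14 and 5.11 under the null label, against 7.19, 7.61, 8.0 and 8.96 under the WT label. The null arrays were close together and the WT arrays were spread. Ighm, the heavy chain of IgM, read 7.54, 8.13, 8.28 and 7.97 under the null label, against 11.04, 11.10, 11.31 and 11.65 under the WT label. Ltb, a membrane lymphotoxin, differed by -1.86, the adaptor Lax1 by -1.99 and the receptor Gpr171 by -1.34. Vpreb1, a surrogate light chain of pre-B cells, was at -0.06, and Cd79a, the signalling chain of the B cell receptor, at 0.07, neither called. Of 113 variable segments of the heavy chain, 42 fell, and of 86 of the kappa chain, 41 fell, with none higher in either family. Their sequences are alike and a probe set may read several of them, so these segments are given as counts only. Of 10 B cell markers none reached a fold of 1.5, and Cd79b was lowest at -0.52 (median 0.04).

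Among 21 transcription factors of lymphoid fate, 5 fell and none rose, with a median of -0.19. Sox4, which early B cells need, read 8.06, 8.29, 8.12 and 8.15 under the null label, against 10.36, 10.22, 9.92 and 10.10 under the WT label. Mef2c changed by -1.60, Satb1 by -1.29, Id2 by -0.86 and Notch1 by -0.67. Ikzf1 at 0.08 and Bcl11a at 0.01 were not called. The lymphoid decrease was thus uneven, large in Sox4 and near 0 in Ikzf1, the factor Ikaros.

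The GIMAP GTPases, small proteins that keep lymphocytes alive, were among the groups with the lowest medians. Of 8 measured, 4 fell and none rose, with a median of -0.68. Gimap6 read 6.17, 6.18, 6.11 and 6.43 under the null label, against 7.71, 8.23, 7.67 and 8.11 under the WT label (-1.71, SE 0.13, adjusted p = 2.14e-05, limma). The labels stood more than 1 log2 unit apart. Gimap5 changed by -1.44, Gimap9 by -1.32 and Gimap1 by -0.83. Gimap4 (-0.54), Gimap8 (-0.41), Gimap3 (-0.31) and Gimap7 (-0.21) were not called. Gimap4 passed both thresholds without WT replicate 1 (-0.59). The genes lie in 1 cluster and are related in sequence.

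MHC class II genes had the lowest median of the lists, at -1.02. Of 16 measured, 9 fell and 1 rose. H2-Ob, a subunit of the chaperone H2-O, read 6.43, 6.55, 6.81 and 6.61 under the null label, against 9.0, 8.82, 8.99 and 9.05 under the WT label (-2.36, SE 0.084, adjusted p = 3.84e-07, limma). The presenting chains fell by similar amounts, H2-Ab1 by 1.27, H2-Eb1 by 1.10 and H2-Aa by 1.09 on the log2 scale. The loading chain H2-DMa changed by -1.30 and Ctss, the protease that trims the invariant chain, by -1.28. The gene that rose was Ifi30, a lysosomal thiol reductase, at 9.04, 9.30, 8.59 and 8.45 under the null label, against 7.94, 8.02, 7.63 and 7.88 under the WT label. Ciita, the master activator of class II genes, was at 0.05 and its partner Rfx5 at -0.25, neither called. Of 23 MHC class I probe sets, a family chosen after its values were seen, 6 fell and none rose, among them H2-M3 (-1.31) and H2-K1 (-1.03). B2m, the light chain of class I, was among the brightest genes that fell, at 11.75, 11.92, 12.05 and 11.82 under the null label, against 12.84, 12.62, 12.77 and 12.64 under the WT label.

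Cytokine receptors were lower in part. Of 35 measured, 13 fell and 1 rose, with a median of -0.32. Flt3, the receptor of lymphoid-primed progenitors, read 6.45, 6.53, 6.20 and 6.10 under the null label, against 9.68, 9.56, 8.98 and 9.04 under the WT label. Replicates 1 and 2 were higher than replicates 3 and 4 under both labels. Il4ra fell by 1.32, Il1r1 by 1.25, Csf3r, the receptor of G-CSF, by 1.24, Il10rb by 0.96 and Il6st, the shared chain of the interleukin-6 family, by 0.88 on the log2 scale. Both chains of the type I interferon receptor fell, Ifnar2 by 0.80 and Ifnar1 by 0.72. Epor, the erythropoietin receptor, rose and is described with the red cell genes. Of 17 chemokine and sphingosine phosphate receptors, Cxcr4 (-1.08) and S1pr4 (-0.72) fell and none rose, where 3.67% of all probe sets fell. Cxcr4, which holds stem cells in the marrow, read 10.69, 10.65, 10.77 and 10.79 under the null label, against 11.91, 11.92, 11.72 and 11.68 under the WT label.

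Interferon-induced genes were lower in part, by modest amounts. Of 26 measured, 8 fell and none rose, with a median of -0.49. Oas1a, which makes the activator of RNase L, read 7.82, 8.32, 8.41 and 7.98 under the null label, against 9.21, 9.09, 9.22 and 9.11 under the WT label (-1.02, SE 0.12, adjusted p = 2.98e-04, limma). Ddx58, the RNA sensor RIG-I, changed by -0.97, Bst2, the viral tether, by -0.93 and the GTPase Igtp by -0.87. Isg20, an exonuclease, was at 0.47 and was not called. In the p200 family, chosen after its values were seen, Ifi203-ps (-1.65) and Mndal (-1.64) fell among 9 measured, and these relatives may share signal.

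Immediate-early genes, which cells switch on within minutes of a stimulus, were lower in part as well. Of 31 measured, 15 fell and none rose, with a median of -0.37. Rgs1, a brake on G protein signalling, read 5.09, 5.49, 5.02 and 5.19 under the null label, against 6.83, 7.05, 6.77 and 7.62 under the WT label. Dusp6, a phosphatase of ERK, read 8.14, 8.15, 8.54 and 8.35 under the null label, against 10.08, 9.86, 9.78 and 9.96 under the WT label. Jun read 5.88, 6.53, 6.76 and 6.67 under the null label, against 7.27, 7.45, 7.49 and 7.74 under the WT label. None of the labels overlapped for these genes, as for 1108 of the 1124 decreases. Rgs2 changed by -1.70, Dusp1 by -1.39, Klf6 by -1.27 and Fos by -0.89, whereas Egr1 at -0.11 and Jund at -0.01 were not called. The mean level of the list ran from 6.61 to 6.76 over the null arrays and from 7.07 to 7.38 over the WT arrays. In KL, Fos averaged 9.02 under the null label and 10.24 under the WT label, above both KSL means of 7.31 and 8.20.

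The red cell genes ran the other way. Of 25 globin and red cell membrane genes, 14 rose and none fell, with a median of 0.66. Rhag, a partner of the Rh antigen in the membrane, read 10.61, 10.84, 10.38 and 10.55 under the null label, against 6.82, 7.83, 7.26 and 6.56 under the WT label. Rhd, the Rh antigen, read 9.43, 10.05, 9.70 and 9.74 under the null label, against 6.94, 7.17, 7.0 and 6.94 under the WT label. Kel, the Kell antigen, read 8.31, 8.69, 8.40 and 8.47 under the null label, against 6.14, 6.40, 6.38 and 6.12 under the WT label. These blood group genes were a little above the median of all probe sets under the WT label and well above it under the null label. Ermap, an erythroblast membrane protein, differed by 2.67, Cldn13, a claudin, by 3.48, the water channel Aqp1 by 2.48, and Car1, the carbonic anhydrase of red cells, by 2.30. The skeleton proteins Add2 and Ank1 rose by 1.45 and 1.36. Slc4a1, the band 3 anion exchanger, was at 0.15 and Hbb-y, an embryonic globin, at 0.01, neither called.

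Of 17 erythroid transcription factors, 4 rose and 1 fell, with a median of 0.26. Klf1 read 8.80, 9.21, 9.25 and 9.19 under the null label, against 6.85, 6.73, 7.0 and 6.72 under the WT label. Gata1 read 7.54, 7.58, 7.45 and 7.56 under the null label, against 6.59, 6.55, 6.70 and 6.69 under the WT label. Both factors were separated on every array, and Klf1 differed more (2.29) than Gata1 (0.90). Gfi1b, a repressor, rose by 1.39 and E2f4, which red cell progenitors need to divide, by 1.02. Nfe2 fell by 0.63, a call that was lost after quantile normalization (-0.57). Epor read 9.50, 9.61, 9.29 and 9.64 under the null label, against 7.42, 7.36, 7.79 and 7.32 under the WT label (2.04, SE 0.11, adjusted p = 3.26e-06, limma).

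GATA1 binds the letters AGATAA, which read TTATCT on the other strand, and promoters of some genes of the comparison hold them. The 250 bases before the start are shown for Epor (chr9:21963577-21963826, minus strand), Kel (chr6:41704326-41704575, minus strand) and Rhd (chr4:134864286-134864535, plus strand). These are red cell genes that rose and hold the letters there. Those of Dntt (chr19:41029025-41029274, plus strand) are shown because this gene, the largest decrease outside immunoglobulin segments, holds the same letters. All 4 hold the motif, so they do not show how often it occurs. The sequences are from RefSeq, build GRCm38.p6, 5′ to 3′ along the gene, and the capitals mark the motif.
Epor: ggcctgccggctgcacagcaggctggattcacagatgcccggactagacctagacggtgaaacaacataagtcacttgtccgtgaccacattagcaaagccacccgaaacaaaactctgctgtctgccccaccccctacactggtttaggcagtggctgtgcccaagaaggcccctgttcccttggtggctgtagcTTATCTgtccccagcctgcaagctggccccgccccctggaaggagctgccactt
Kel: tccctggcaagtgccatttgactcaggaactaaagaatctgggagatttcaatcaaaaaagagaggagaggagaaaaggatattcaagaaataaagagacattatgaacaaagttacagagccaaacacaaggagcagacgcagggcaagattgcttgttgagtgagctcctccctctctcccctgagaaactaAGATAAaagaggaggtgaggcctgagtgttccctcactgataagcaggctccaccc
Rhd: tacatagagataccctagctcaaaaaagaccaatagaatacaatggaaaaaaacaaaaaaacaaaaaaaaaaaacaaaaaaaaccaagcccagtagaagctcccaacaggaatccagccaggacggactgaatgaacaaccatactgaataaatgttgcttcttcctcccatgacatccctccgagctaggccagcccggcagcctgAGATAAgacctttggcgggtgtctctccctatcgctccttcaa
Dntt: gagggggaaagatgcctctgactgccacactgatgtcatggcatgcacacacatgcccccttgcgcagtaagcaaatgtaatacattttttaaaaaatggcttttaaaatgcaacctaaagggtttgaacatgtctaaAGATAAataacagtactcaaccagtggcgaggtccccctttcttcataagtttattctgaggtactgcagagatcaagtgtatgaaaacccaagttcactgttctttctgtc
The motif began 54, 56 and 43 bases before the start in Epor, Kel and Rhd, and 112 bases before it in Dntt. It stood in 32 of 343 promoters of genes that rose (9.33%), in 64 of 964 of genes that fell (6.64%) and in 1932 of 21890 of all genes tested (8.83%). Among genes of the 4 red cell lists that rose it stood in 5 of 35 promoters (14.3%). The letters CCACACCC, which KLF1 binds, stood in 4.37% of promoters of genes that rose, 3.63% of those that fell and 3.37% of all, counting both strands. Among genes of the 4 red cell lists that rose, they stood in 1 of 35 promoters (2.86%). Letters of RUNX, E2F and MEIS factors were counted as well. They stood in 14.6%, 1.46% and 16.6% of promoters of genes that rose, against 12.6%, 1.13% and 15.2% of all. A gene may have more than 1 promoter in these counts, and a match is a run of letters, not a shown binding site.

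Genes of heme synthesis rose in part. Of 16 measured, 9 rose and none fell, with a median of 0.67. Cpox, the coproporphyrinogen oxidase, read 9.88, 10.09, 9.87 and 10.13 under the null label, against 7.93, 8.04, 7.88 and 7.96 under the WT label. Fech, which inserts the iron, read 8.71, 8.94, 8.82 and 8.84 under the null label, against 7.41, 7.44, 7.51 and 7.51 under the WT label. Arrays of one label differed little for both enzymes. Blvrb rose by 1.46, Alad by 1.00 and Alas1, the first enzyme in most tissues, by 0.74. Alas2, the first enzyme in red cells, was at 0.09 and read between 5.45 and 5.58 on all 8 arrays. Without WT replicate 3 or 4, 1 gene of the list, Hmox1, was called lower (-0.62 and -0.61).

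Of 15 genes of iron uptake and storage, 6 rose and none fell, with a median of 0.27. Tfrc, the transferrin receptor, read 8.12, 8.19, 8.0 and 8.08 under the null label, against 6.73, 6.96, 6.49 and 6.70 under the WT label. Slc11a2, which carries iron out of the endosome, rose by 1.26, and Slc40a1, the exporter ferroportin, by 1.18. Tfr2 read 9.22, 9.38, 9.46 and 9.51 under the null label, against 8.84, 8.71, 8.24 and 8.11 under the WT label. The gap between the labels was narrower for Tfr2 than for Tfrc. The ferritin chains Fth1 (0.22) and Ftl1 (0.03) were not called. Slc38a5, an amino acid carrier of red cell precursors, read 9.22, 9.53, 9.33 and 9.41 under the null label, against 6.54, 6.95, 6.35 and 6.26 under the WT label. Of 21 amino acid carriers it rose together with Slc7a7 (0.62), and Slc7a8 fell (-1.03), while Slc7a7 was under the fold minimum without null replicate 2 (0.54) and the count of increases was 4 without WT replicate 1.

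Neutrophil granule genes rose in part. Of 25 measured, 10 rose and 2 fell (median 0.25). Elane, an elastase of neutrophils, read 12.51, 12.57, 12.71 and 12.51 under the null label, against 11.01, 10.56, 10.90 and 10.31 under the WT label. Prtn3, proteinase 3, read 10.85, 11.26, 11.35 and 11.28 under the null label, against 10.34, 9.95, 10.41 and 10.10 under the WT label. Null replicate 1 was the lowest of its label for Prtn3. Ms4a3, a membrane protein of granulocyte and monocyte progenitors, differed by 2.01, Igsf6 by 1.79, haptoglobin Hp by 1.59 and ficolin Fcnb by 1.38. Mpo, myeloperoxidase, read 12.57, 12.90, 13.01 and 12.92 under the null label, against 12.69, 11.89, 12.36 and 12.10 under the WT label. Its labels overlapped, and the call (0.59, adjusted p = 0.0312, limma) was lost when any 1 array other than replicate 1 of either label was left out (0.46 to 0.62). The lysozyme genes went down, Lyz2 by 1.52 and its neighbour Lyz1 by 0.75, and they are near-identical copies that may share signal. Of 15 myeloid transcription factors and receptors, Cebpe (1.19), which drives granule maturation, and F13a1 (1.00) rose, and Csf3r fell. Csf1r, the receptor of macrophage growth factor, was at 0.07. Of all probe sets, 1.30% rose and 3.67% fell.

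Genes of megakaryocytes and platelets were lower in part. Of 23 measured, 4 fell and none rose (median -0.15), where 3.67% of all probe sets fell, among them Plek (-1.31), a substrate of protein kinase C in platelets, Gng11 (-1.17) and P-selectin, Selp (-0.87). Pf4, a chemokine of platelets, was at 0.02. Of 18 mast cell, basophil and eosinophil genes, Prss34 fell (-1.69), and Hdc, which makes histamine, rose (0.98). Prss34, a protease of basophils, read 7.98, 8.60, 10.07 and 9.55 under the null label, against 10.53, 10.72, 11.08 and 10.65 under the WT label. Null replicates 1 and 2 lay well below null replicates 3 and 4. Mcpt8, another basophil protease, was at -0.85 and was called without null replicate 3 (-1.05), and Prg3 (0.64), with overlapping labels, lost its call when any 1 array other than null replicate 1 and WT replicate 2 was left out (0.52 to 0.69).

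Genes of the cell cycle were mostly not called. Of 29 genes of mitosis and cytokinesis none reached a fold of 1.5 (median 0.19). By the adjusted p alone, 8 of them were higher and 1 lower, where 8.47% of all probe sets were higher and 10.5% lower. Leaving out null replicate 1 or 2 or WT replicate 1, 3 or 4 brought 1 gene past the thresholds in one or both directions. Of 36 genes of DNA replication, 3 rose and 1 fell (median 0.06), where 1.30% of all probe sets rose and 3.67% fell. Without the fold minimum, 9 were higher and 2 lower. Cdc6, which loads the helicase, rose by 0.92, Rrm2, the regulated subunit of ribonucleotide reductase, by 0.73 and Rrm1, its partner, by 0.59, while Rfc2 fell by 0.68. Rfc2 lost its call without null replicate 1 (-0.56), and Rrm1 lost it when any 1 array other than null replicate 3 and WT replicate 1 was left out (0.53 to 0.58). Mcm5 was at 0.00. Among 17 cyclins, kinases and E2F factors of G1, Ccne1, cyclin E1, read 9.04, 9.46, 9.29 and 9.56 under the null label, against 7.57, 7.30, 7.46 and 7.53 under the WT label. E2f4 rose as well, and Ccnd2, cyclin D2, fell by 0.84. Myc was at 0.06. Of 11 CDK inhibitors and pocket proteins, Cdkn1a (-0.68) and Rbl2 (-0.59) fell and Rb1 (0.62) rose. All of these calls lay near the fold minimum. Without null replicate 1 Cdkn1a and Rbl2 were at -0.58 and -0.56, without WT replicate 1 Rbl2 was at -0.50, and without null replicate 2 or WT replicate 4 Rb1 was at 0.56 and 0.52, none called.

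The lists of calcium kinases, AMPK and mTOR genes held 1 or 2 called genes each, where 4.96% of all probe sets were called. Of 9 calcium and calmodulin kinases, Camk2g and Camk1 fell and none rose (median -0.19). Camk1, which encodes CaMKI, read 7.52, 7.42, 7.44 and 7.51 under the null label, against 8.07, 8.11, 8.12 and 8.09 under the WT label. Arrays of one label lay close together, and the difference of -0.63 was just short of the fold minimum after quantile normalization (-0.57). Camk2g read 7.49, 7.22, 7.40 and 7.27 under the null label, against 8.31, 8.05, 8.14 and 7.97 under the WT label. Camk2d, at -0.58, was called without null replicate 1 (-0.61) or WT replicate 3 or 4 (-0.60 and -0.61).

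Of 10 genes of AMPK and its activator LKB1, Prkag2 fell and none rose (median 0.11). Prkag2, a regulatory subunit that senses AMP, read 6.38, 6.51, 6.76 and 6.59 under the null label, against 7.55, 7.55, 7.36 and 7.53 under the WT label (-0.93, SE 0.083, adjusted p = 5.47e-05, limma). The catalytic subunit Prkaa1 (0.50) and the subunits Prkag1 (0.44) and Prkab1 (0.38) had limma adjusted p values of 0.0014, 0.00267 and 0.0042, in the other direction and under the fold minimum. After quantile normalization Prkaa1 was called higher (0.59). Stk11, which encodes LKB1, was at 0.20.

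Of 13 genes of the mTOR pathway, the sestrins Sesn3 and Sesn1, which restrain mTOR when nutrients or DNA fail, fell and none rose (median -0.15). Sesn1 read 7.12, 7.12, 6.95 and 6.90 under the null label, against 8.55, 8.50, 8.36 and 8.74 under the WT label. Sesn3 read 4.85, 3.86, 5.41 and 5.23 under the null label, against 8.09, 7.05, 6.67 and 7.81 under the WT label. Sesn3 was widely spread under both labels, which stayed more than 1 log2 unit apart. Eif4ebp1, a target of mTOR, was at 0.39 (adjusted p = 0.0048, limma), Rptor at -0.21 and Tsc2 at -0.01. Among 22 targets of p53, Sesn1 and Trp53inp1 (-1.36), a stress protein, fell with Cdkn1a, and Gadd45a rose by 0.60, a call lost without WT replicate 1 (0.54). Of all probe sets, 4.96% were called.

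Metabolic genes gave mixed values, beside 3.67% lower and 1.30% higher over all probe sets. Of 23 genes of glycolysis, 4 fell and 1 rose (median -0.10). Pklr, the pyruvate kinase of red cells and liver, read 8.88, 9.03, 9.11 and 8.99 under the null label, against 7.44, 7.34, 7.37 and 7.39 under the WT label. Pkm, the kinase of most other cells, read 7.50, 7.71, 7.87 and 7.76 under the null label, against 8.95, 8.56, 8.57 and 8.46 under the WT label. The pyruvate kinases thus differed in opposite directions, and the labels overlapped for neither. The glucose carrier Slc2a1 fell by 1.04, Ldhb by 0.85 and Aldoc by 0.66 on the log2 scale, and Ldha was at 0.01. Without WT replicate 1, Pfkm was called higher as well (0.62). Of 22 genes of the TCA cycle, Cs (0.66), Dlat (0.59) and Idh3a (0.59) rose. Dlat lost its call without null replicate 2 or 3 or with WT replicate 3 or 4 left out (0.55 to 0.58), and Idh3a without null replicate 2 or 4 or with WT replicate 2 or 4 left out (0.53 to 0.58). Of 18 genes of cholesterol synthesis, Srebf2 (-0.74), its main activator, and Insig1 (-0.60) fell, the second not without WT replicate 2 (-0.51) or null replicate 4 (-0.49). Of 27 genes of ribosome biogenesis, Nolc1 (0.76) and Ncl (0.60) rose (median 0.24). By the adjusted p alone 12 were higher and none lower, where 8.47% of all probe sets were higher. Ncl lost its call without null replicate 4 or WT replicate 3 or 4 (0.56, 0.52 and 0.54), and without WT replicate 1 the count of calls was 4.

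Among 16 measured survival genes of the BCL2 family, where 4.96% of all probe sets were called, only Bcl2 was called. It read 7.24, 7.27, 7.06 and 7.22 under the null label, against 8.27, 8.06, 8.11 and 8.16 under the WT label (-0.95, SE 0.066, adjusted p = 1.13e-05, limma). Mcl1, which stem cells need, was at -0.35. Of 19 integrins, Itgam (-0.71), a myeloid chain, and Itga6 (-0.62) fell, where 3.67% of all probe sets fell. Itga6 lost its call without WT replicate 1 or null replicate 4 (-0.53 and -0.57), and Itga5 (0.54) was called higher without null replicate 1 or WT replicate 1 (0.59 and 0.60).

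**Figure D5:**
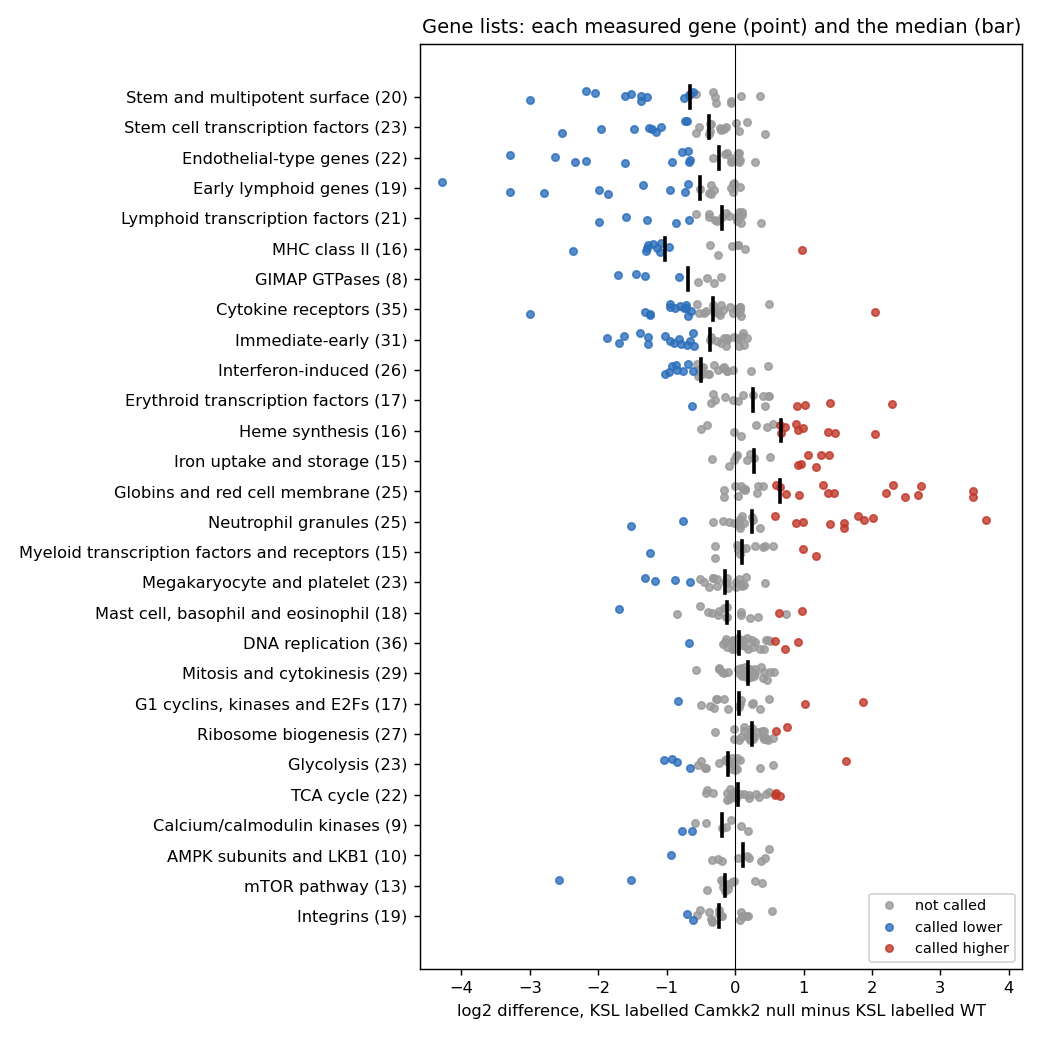
Log2 difference, labelled Camkk2 null minus labelled WT (horizontal axis), of each measured gene of 28 lists (1 point a gene) with the median of the list (bar) and the number measured in brackets. Medians of stem cell, lymphoid, MHC class II and immediate-early lists lie left of 0 and those of red cell lists right. The mitosis median is 0.19 and the TCA cycle median 0.04.

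Markers of cells that the gate should exclude were read beside these lists. Of all probe sets, 3.67% fell and 1.30% rose. Of 14 lineage and gate markers, Klrb1c (-1.02), of NK cells, Kit and Itgam fell and none rose, and the mean level of the list ran from 5.60 to 5.65 over the null arrays and from 5.76 to 5.88 over the WT arrays. Of 18 T and NK cell genes, Klrb1c, Klrd1 (-0.72) and Gzma (-0.60) fell, and the mean ran from 5.66 to 5.78 over the null arrays and from 5.78 to 5.99 over the WT arrays. Gzma lost its call without null replicate 3 (-0.58) and with WT replicate 2 or 3 left out (-0.57 and -0.53). Of 11 genes of plasmacytoid dendritic cells Bst2 fell, and of 12 of stroma Pdgfrb (-1.23) and Igfbp4 (-0.66) fell while Col1a1 was at 0.04. Igfbp4 lost its call after quantile normalization (-0.56). Tcf4, at -0.57, joined the first of these lists without WT replicate 3 (-0.66), and Irf7 did so without WT replicate 2 (-0.60). Of 14 macrophage and monocyte genes, 3 fell, Itgam, C1qb (-0.69) and Cd68 (-0.63), and 2 rose, Ly6c2 (1.92) and Ly6c1 (0.59), which are near copies. Ly6c1 lost its call without null replicate 3 or WT replicate 2 (0.53 and 0.57), and Cd68 without null replicate 2 (-0.55), without WT replicate 1 (-0.51) and after quantile normalization (-0.57). Klrb1c averaged 4.97 under the null label and 5.99 under the WT label, against a median of 5.89 over all probe sets. The part of such cells in the values above was not tested.

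Xist, the RNA of the inactive X chromosome, read 9.40, 9.56, 10.05 and 9.91 under the null label, against 10.88, 10.63, 10.42 and 10.39 under the WT label (-0.85), while the Y-linked genes Eif2s3y (-0.11), Uty (-0.18) and Kdm5d (-0.12) were not called. Of 12 housekeeping genes B2m alone was called, but 7 were lower and none higher by the adjusted p alone, where 10.5% of all probe sets were lower. Their median was -0.29, against 0.05 over all probe sets, and -0.17 after quantile normalization. Their mean level ran from 10.15 to 10.40 over the null arrays and from 10.52 to 10.71 over the WT arrays, without overlap. Actb was at -0.43 and Hprt at -0.47, and Eef1a1, at -0.04, was at 0.06 after quantile normalization. The part of this shift in the decreases above was not tested. The list had 2 calls without null replicate 3 or WT replicate 2.

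Families chosen after their values were seen differed within themselves. Among 19 tetraspanins, 7 fell and 3 rose. Tspan6 read 5.57, 5.70, 6.07 and 5.83 under the null label, against 7.63, 8.04, 8.09 and 8.0 under the WT label, and Tspan8 read 8.06, 8.31, 8.0 and 8.56 under the null label, against 5.59, 5.78, 5.49 and 5.22 under the WT label. These tetraspanins, proteins that organise membrane patches, thus crossed over between the labels. Both metallothioneins of general expression rose, Mt1 by 2.12 and Mt2 by 1.33. The cysteine protease inhibitors Ctla2a and Ctla2b differed by -2.46 and -2.90, and Tmem176a and Tmem176b by -1.90 and -2.03, each pair being close copies. Of 67 small nucleolar RNA probe sets 11 rose and 2 fell, with Snora73b at 1.68 and 1.63 on its probe sets, Snora73a at 1.61 and Snord45b at 1.56. Of 643 microRNA precursor probe sets, 5 rose and 5 fell. Over all probe sets, 1.30% rose and 3.67% fell.

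Genes beside Camkk2 on the chromosome showed no shared shift. Of the 10 nearest tested genes on each side in the order of the GRCm38.p6 gene table, 19 were read by probe sets whose names carry chromosome 5, and of these 1 fell and 1 rose, with a median of -0.05. P2rx4, the nearest on one side and an ATP-gated calcium channel, averaged 7.54 under the null label and 8.30 under the WT label (-0.75, adjusted p = 0.00503, limma). Anapc5, the nearest on the other side, was at -0.26. Tmem120b rose (0.76), and Orai1, the channel of store-operated calcium entry, was at -0.36. By the limma adjusted p alone, Rnf34 (-0.50), Rhof (-0.45) and Orai1 were also lower, and Gpn3 (0.35) and Atp2a2 (0.26) also higher. Over all probe sets, 19.0% had an adjusted p under 0.05. The neighbour not counted, Mir8115, was read by a probe set named for chromosome 11. None of the 20 differed between replicate numbers on the 16 arrays as Camkk2 did (limma F test, adjusted over all probe sets), with 3 at an unadjusted p under 0.05 on the KSL arrays.

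Of the 5 brightest genes that fell, 4 lay near the fold minimum. Ubb-ps, Itm2b, Pfdn5 and Dctpp1 were at -0.59, -0.60, -0.65 and -0.64, with null replicate 1 the lowest array in each. Each lost its call without null replicate 1 (-0.44, -0.50, -0.56 and -0.52). Without WT replicate 1 Ubb-ps and Itm2b lost theirs too (-0.54 and -0.57), and Ubb-ps also without null replicate 2 or WT replicate 3 (-0.58 and -0.57). Among the increases the brightest were Car1, Elane, Ms4a3, Ly6c2 and Odc1. Odc1, the first enzyme of polyamine synthesis, read 11.20, 11.08, 11.10 and 11.25 under the null label, against 10.59, 10.37, 10.57 and 10.44 under the WT label.

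The same label difference stood in KL. There 826 probe sets (2.70%) were lower and 387 (1.26%) were higher under the null label. Of the probe sets lower in KSL, 703 were also lower in KL, 62.5% of the KSL list and 85.1% of the KL list. Of those higher in KSL, 264 were also higher in KL, 66.5% and 68.2% of the lists, and none was called in opposite directions. KSL and KL arrays may come from the same marrow pools, which the labels do not state. The difference between the KSL and the KL effect reached an adjusted p under 0.05 for no probe set (limma interaction, smallest adjusted p 0.125, with 1888 at an unadjusted p under 0.05), so no change is shown to be particular to KSL. This interaction fit also left out the replicate number, and a fit that includes it was not run. Dntt differed by -4.28 in KSL and by -3.80 in KL, and Meis1 averaged 7.21 in KL under the null label and 9.33 in KL under the WT label. Sox4 averaged 9.01 in KL under the null label and 10.18 in KL under the WT label, and the test of the difference between KSL and KL gave an adjusted p of 0.127 (limma). For Elane, at 12.68 in KL under the null label and 9.97 in KL under the WT label, it gave 0.624.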

How the data were processed

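RNA of sorted mouse marrow cells was measured on whole-transcript arrays after small-sample amplification and biotin labelling. The authors deposited log2 values, made in Partek 6.6 by RMA according to the submitters' processing notes, a method that corrects background, sets arrays to 1 distribution and merges the probes of a set. Its options are not given in the sources used here. The deposited probe set values were not on exactly 1 distribution. KSL array medians ran from 5.01 to 5.12. The highest values ran from 14.78 to 14.89 on the null arrays and from 14.92 to 14.97 on the WT arrays. With 4 arrays a label, their number sets the precision.

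Groups came from the array titles. Of 72688 features, 32814 were listed with a gene, and the others were controls or had no gene in the platform annotation. Of those listed, 2176 named several genes, which left 30638 probe sets of 30176 genes, with no filter on dim ones. For the 354 genes with more than 1 probe set, the text gives the brightest unless it says otherwise. Among the probe sets tested, 571 share their values with another on all 8 arrays.

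Labels were compared on the 8 KSL arrays by lmFit and eBayes of limma 3.58.1 (R 4.3.3), two-sided and without covariates, and p-values were adjusted by Benjamini-Hochberg over all probe sets. A call needs both an adjusted p under 0.05 and a 1.5-fold difference, the lines of the study's volcano plot. KSL against KL and the interaction used all 16 arrays, without the replicate number in the fit. The fit was tested on simulated data with known differences.

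Members and gene lists were chosen with earlier results of these data known. Named were Camkk2, its neighbours and kinase pathway, the 25 leading decreases and increases (predicted genes, small RNAs and receptor segments left out), up to 6 called and 4 bright uncalled genes a list, the 5 brightest genes called in each direction, and genes that leaving out an array concerned. Calcrl, Insl6 and other genes outside lists come from the leading genes, and the families were chosen after their values were seen. Lists are described by counts and medians, beside 3.67% lower, 1.30% higher and a median of 0.05 over all probe sets. Promoters are the 250 bases before the start in RefSeq, build GRCm38.p6, read with Python 3.11.15. Alternatives tried were the replicate number as a block, other scalings, a level filter, 1 probe set per gene, a shared spread, an intensity trend, array weights, other fold minimums, the methods' t-test and leaving out each array.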

Additional observations from a re-analysis of the deposited data

Results flagged for a closer look

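For the 240 genes named, each label's 4 KSL arrays were searched for an array far from the other three by Dixon's ratio. Of 480 such groups, 24 (5%) held one, and chance alone gives about 1 in 20. WT replicates 1 and 3 held 6 each and null replicate 1 held 4.

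Among genes that were called lower, null replicate 3 was high for Cd244a (6.49, against 6.03 to 6.09 on the other null arrays), null replicate 2 was high for Gimap5 (6.0, against 5.92), and null replicate 1 was low for Lyz2 (7.96, against 8.09 to 8.12). Under the WT label, replicate 1 was high for Meis1 (9.31, against 8.94 to 8.98) and Ccnd2 (9.84, against 9.32 to 9.39), replicate 2 was low for Cd48 (11.04, against 11.33 to 11.38), replicate 3 was low for Prkag2 (7.36, against 7.53 to 7.55) and Trp53inp1 (6.76, against 7.30 to 7.34), and replicate 4 was high for P2rx4 (8.57, against 8.17 to 8.23). Among genes that were called higher, null replicate 1 was low for Klf1 (8.80, against 9.19 to 9.25) and Snora73b (10.21, against 10.55 to 10.60), null replicate 3 was low for Rrm1 (9.35, against 9.49 to 9.52), and WT replicate 1 was low for Gadd45a (7.56, against 7.75 to 7.79).

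Among genes not called, null replicate 1 was low for Hprt (10.13, against 10.55 to 10.59), null replicate 2 was low for Ciita (5.71, against 5.85 to 5.86), and null replicate 4 was high for Cdh5 (4.94, against 4.82 to 4.83). WT replicate 1 was high for Tsc2 (8.18, against 7.69 to 7.73) and Rptor (7.74, against 7.58 to 7.61) and low for Jund (7.50, against 7.69 to 7.73). WT replicate 2 was low for Pf4 (9.68, against 10.39 to 10.45). WT replicate 3 was high for Alas2 (5.52, against 5.45), Col1a1 (7.40, against 7.15 to 7.19) and Gimap7 (6.25, against 5.99 to 6.04) and low for Myc (9.90, against 10.09 to 10.12).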

How the results depend on the processing

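The main counts of 1124 lower and 397 higher probe sets stayed within 1.5 times under each alternative run except the other fold minimums. Quantile normalization gave 987 and 481, centring each array on its median 1236 and 347, and the methods' t-test 1127 and 398 unadjusted and 1021 and 367 after Benjamini-Hochberg. Leaving out 1 array gave 1042 to 1170 lower and 375 to 413 higher. Without the fold minimum the counts were 3213 and 2595, and at a fold of at least 2 they were 355 and 133. What same-numbered arrays of the labels share is not given in the sources used here. Their deviations correlated at -0.00391, 0.0997, 0.158 and 0.122 for replicates 1 to 4, not every array correlated best with its own number, and the replicate block gave 1141 lower and 411 higher, with 1123 and 397 of the main calls. Between replicate numbers, the limma F test called 0 probe sets in KSL (2484 at an unadjusted p under 0.05) and 173 on all 16 arrays. Of the values of named genes under the alternatives, 3701 kept their side of the threshold. Values near 0 among these may still have changed sign. A further 89 lost a call, 21 gained one and 12, of genes not called, moved by more than the spread between arrays. One of these, Eef1a1, changed sign (-0.04 and, after quantile normalization, 0.06), and no called gene did. Centring on the median ended the calls of Dlat, Gadd45a, Idh3a, Ly6c1, Mir8115, Mpo, Ncl, Prg3 and Rrm1 (0.55 to 0.61), and quantile normalization those of Camk1, Cd68, Dctpp1, Igfbp4, Insig1, Itm2b, Nfe2, Pfdn5, Rbl2, Rfc2 and Ubb-ps (-0.57 to -0.37). Most genes have a single probe set, so their values had no second reading.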

Other observations

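Beside Camkk2, other genes differed between replicate numbers. Whether they also differed by label is not given here. By the limma F test on all 16 arrays, Apoe, the lipid carrier apolipoprotein E, averaged 8.65 and 8.78 in replicates 1 and 2 and 8.0 and 7.96 in replicates 3 and 4 (adjusted p = 4.13e-04). Anxa9, an annexin, averaged 7.15 and 7.36 in replicates 1 and 2 and 6.29 and 6.44 in replicates 3 and 4 (adjusted p = 6.68e-04). Bckdhb, a subunit of the branched-chain ketoacid dehydrogenase, averaged 7.93 and 8.36 in replicates 1 and 2 and 8.99 and 8.75 in replicates 3 and 4 (adjusted p = 1.75e-04). What the replicate numbers stand for is not given in the sources used here.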
